A study of Rattus norvegicus with 12 samples.

Results

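The genes described here bind retinoids, make retinoic acid or act as its nuclear receptors. They are the cellular retinoic acid binding proteins Crabp1 and Crabp2, the retinaldehyde dehydrogenases Aldh1a1 and Aldh1a2, the retinoic acid receptors Rara, Rarb and Rarg, and the retinoid X receptors Rxra and Rxrg. These 9 genes were picked by name, with earlier results of the same arrays known, and each was to be read from the probe set with the highest mean over all 12 arrays. Each of 7 genes had exactly 1 probe set with its symbol among the 18957 detected probe sets, so the level selected nothing, and those probe sets carry 11053 named genes in all. Aldh1a1 and Rarb had no named probe set and are not analysed here. Hind leg skeletal muscle came from newborn male Wistar rats, whose mothers had been given 1 of 3 diets from day 1 of pregnancy. The first group had a low protein diet with 2% w/v taurine in the drinking water, the second had a low protein diet without taurine, and the third had a control diet. Each group had 4 arrays, and each array carried the pooled muscle RNA of 3 male pups from 1 litter, so that the dam is the replicate and single pups are not resolved.

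Retinoic acid is made from vitamin A (retinol), which reaches tissues on carrier proteins. Dehydrogenases oxidise retinol to retinal, and retinaldehyde dehydrogenases oxidise retinal to retinoic acid. Inside the cell, CRABP2 is known to carry retinoic acid to its nuclear receptors and CRABP1 to retain it in the cytosol, and enzymes of the CYP26 family break it down. Retinoic acid receptors pair with retinoid X receptors on repeated DNA motifs. In developing limb and muscle this signal is known for patterning and for promoting the differentiation of myoblasts.

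All 9 genes matched the RefSeq promoter table (rat assembly GRCr8), which gives 250 bases before and 50 bases after each gene's start. The windows of Crabp2 and Rxrg are printed because these genes had the largest differences between diets. Capitals mark the motifs searched on both strands: the E-box CAGCTG bound by myogenic factors, the TATA motif TATAAA, the GC box GGGCGG, and direct repeats (of AGGTCA itself, or the variant GGTTCA, or the variant AGTTCA, or the variant GGGTCA) with 1, 2 or 5 bases between them, the arrangement that retinoid receptors bind. The capitals of Crabp2 hold adjacent GC boxes, an E-box and a TATA motif, and those of Rxrg hold an E-box.

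Crabp2 (chr2:175714612-175714911, + strand): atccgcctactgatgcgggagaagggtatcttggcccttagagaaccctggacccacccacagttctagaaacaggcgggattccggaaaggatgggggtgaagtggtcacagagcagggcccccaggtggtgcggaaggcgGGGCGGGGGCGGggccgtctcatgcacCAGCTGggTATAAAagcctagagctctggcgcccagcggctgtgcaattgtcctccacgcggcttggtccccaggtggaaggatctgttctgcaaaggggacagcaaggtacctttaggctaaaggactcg

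Rxrg (chr13:82276237-82276536, + strand): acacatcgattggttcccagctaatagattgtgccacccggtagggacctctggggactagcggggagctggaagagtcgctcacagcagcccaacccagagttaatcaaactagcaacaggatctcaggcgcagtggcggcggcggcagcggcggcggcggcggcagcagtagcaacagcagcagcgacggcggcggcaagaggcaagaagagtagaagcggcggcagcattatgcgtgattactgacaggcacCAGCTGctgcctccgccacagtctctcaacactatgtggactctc

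CAGCTG was present in 15.1% of the 33469 promoters in the table, TATAAA in 14.2% and GGGCGG in 33.1%. Among the 9 genes, CAGCTG lay at positions -81 to -76 of Crabp2, 6 to 11 of Rxrg and -211 to -206 of Aldh1a1, counted from the start. TATAAA was found in Crabp2, at -73 to -68, and in no other of the 9. Direct repeats were rare, in 0.233% of all promoters with a spacer of 1 base, 0.17% with 2 and 0.382% with 5. Rarb, whose promoter element is a textbook target of retinoic acid receptors, was the 1 gene of the 9 with such a repeat, and it is shown with its motifs in capitals.

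Rarb (from the window chr15:11336142-11336441, + strand, positions 25 to 41 after the start): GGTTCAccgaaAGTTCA

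Crabp2 and Rxrg had none of these repeats in the window, which leaves sites elsewhere in the genes unexamined.

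The values are the authors' RMA log2 levels, and differences are in the same log2 units. Array medians ranged from 7.66 to 7.75. The tissue label was checked against myofibre markers: 9 of 10 had a probe set, and their mean was 12.23 to 12.56 with low protein plus taurine, 12.16 to 12.34 with low protein and 12.13 to 12.36 in controls. Controls 3 and 4 stood apart in liver genes, with a mean over 12 of 20 hepatocyte markers of 10.45 and 11.37, against 6.71 to 8.07 in the other 10 arrays. In pooled tissue, fewer cells of a type and less RNA per cell cannot be told apart.

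Low protein against control asked what the maternal diet changed. Crabp2, Rxrg and Rara rose in low protein muscle, and none of the 7 genes fell. In 4 of the 7 genes all low protein arrays lay above all controls. Over all detected probe sets 33.7% passed the threshold (limma, adjusted p under 0.05), 21.8% as higher and 11.9% as lower (47.6% at an unadjusted p under 0.05), and 22.2% had all low protein arrays above and 10.6% all below the controls. Among probe sets with 1 symbol 26.5% passed as higher, and among those above the median level 35.2%. As lower, 531 of the 9478 probe sets above the median level passed, against 2263 of all 18957. The median difference of the 7 genes was 0.32, against 0.07 for all probe sets, 0.11 for those with 1 symbol and 0.13 for those above the median level. Without controls 3 and 4, 2 of the 7 passed, Rxrg and Rxra, against 19.5% of all probe sets. After cyclic loess 2 passed, Rxrg and Crabp2, against 13.5%.

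Among the binding proteins, Crabp2 had log2 values of 6.77, 6.45, 7.40 and 7.40 with low protein plus taurine, 7.25, 7.47, 7.48 and 7.36 with low protein, and 6.85, 6.59, 6.94 and 6.55 in controls. All low protein arrays lay above all controls, while the taurine arrays fell into a low pair and a high pair. The means were 7.0 ± 0.47 with low protein plus taurine, 7.39 ± 0.11 with low protein and 6.73 ± 0.19 in controls (SD, n = 4 each). All Crabp2 values lay below the array medians of 7.66 to 7.75. Low protein exceeded control by 0.66 (SE 0.18, limma adjusted p = 0.0195), a 1.58-fold difference. Without controls 3 and 4 the difference was 0.67 (adjusted p = 0.0594), and without low protein replicate 3 it was 0.63 (adjusted p = 0.051), so the call was lost in both. Marker means of other cells that the muscle holds also had all low protein arrays above all controls. The mean of 11 of 12 connective tissue markers was 10.38 to 10.51 with low protein plus taurine, 10.42 to 10.47 with low protein and 10.25 to 10.36 in controls. The mean of 6 of 8 markers of satellite cells and myoblasts was 8.98 to 9.08 with low protein plus taurine, 9.04 to 9.17 with low protein and 8.66 to 8.98 in controls. The mean of 5 of 7 tendon markers was 8.52 to 8.90 with low protein plus taurine. It was 8.52 to 8.78 with low protein and 8.21 to 8.48 in controls. Of the 5, 4 rose with low protein, as did 3 of the 6 satellite cell and myoblast and 2 of the 11 connective tissue markers. Over all probe sets 21.8% rose, and 35.2% of those above the median level. The mean of 5 of 8 Schwann cell markers was 8.44 to 8.60 with low protein plus taurine, 8.56 to 8.67 with low protein and 8.30 to 8.5 in controls, and 0 of the 5 passed with limma. The endothelial mean, given with Rbp7, was also higher in all low protein arrays than in all controls, and 6 of its 11 markers rose. The median low protein difference was 0.11 for connective tissue markers, 0.27 for those of satellite cells and myoblasts and 0.31 for tendon. It was 0.24 for Schwann cell and 0.21 for endothelial markers. For all probe sets it was 0.07, for those with 1 symbol 0.11 and for those above the median level 0.13. The part of these cells in the differences of Crabp2, Crabp1, Rara and Rxrg was not tested.

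Crabp1, the cytosolic relative of Crabp2, had values of 8.06, 7.80, 8.88 and 8.42 with low protein plus taurine, 8.43, 8.32, 8.70 and 8.89 with low protein, and 8.14, 8.09, 8.20 and 8.10 in controls. All low protein arrays lay above the narrow range of the controls, and the taurine arrays reached into the low protein range and below the controls. The means were 8.29 ± 0.47 with low protein plus taurine, 8.58 ± 0.26 with low protein and 8.13 ± 0.05 in controls (SD, n = 4 each). The low protein difference of 0.45 (SE 0.19) did not pass (adjusted p = 0.0777). It passed under 4 of 21 alternatives, among them the fit of only the low protein and control arrays (adjusted p = 0.0206), while cyclic loess gave 0.30 (adjusted p = 0.302).

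**Figure D1:**
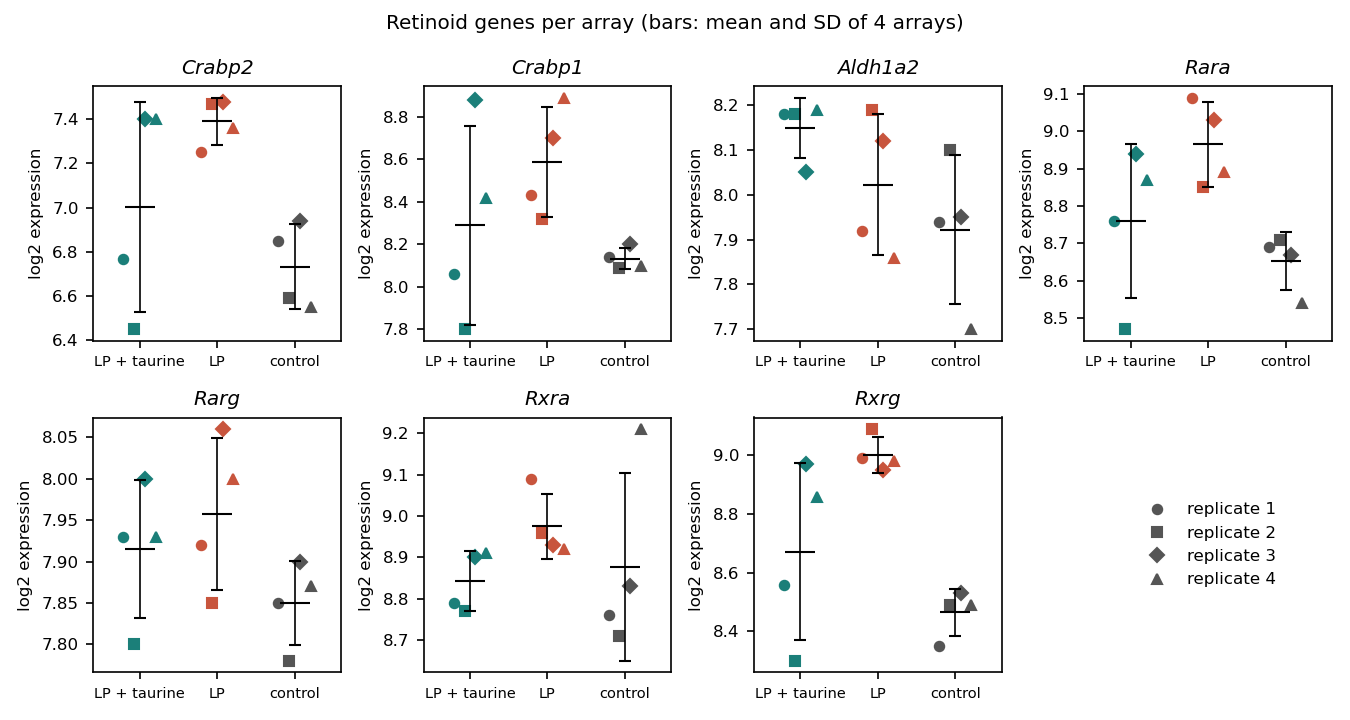
Log2 expression of the 7 retinoid genes in each of 12 arrays, with low protein plus taurine at the left, low protein in the middle and control at the right. Points are arrays, with a symbol for each replicate number, and bars are the mean and SD of 4 arrays. In Crabp2, Crabp1, Rara and Rxrg the low protein arrays lie above all controls, and Aldh1a2, Rarg and Rxra overlap between these groups. Each panel has its own axis, which does not start at 0.

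Aldh1a2 encodes the retinaldehyde dehydrogenase that makes most retinoic acid in the embryo. It had values of 8.18, 8.18, 8.05 and 8.19 with low protein plus taurine, 7.92, 8.19, 8.12 and 7.86 with low protein, and 7.94, 8.10, 7.95 and 7.70 in controls. The groups overlapped. Low protein plus taurine lay 0.23 (SE 0.09, adjusted p = 0.102) above control and 0.13 (adjusted p = 0.613) above low protein. Low protein lay 0.10 above control (adjusted p = 0.401), and the sign of that difference turned after cyclic loess normalization (-0.04). Aldh1a2 was thus the one gene of the 7 with its highest mean in the taurine group, at 8.15 ± 0.06, against 8.02 ± 0.16 with low protein and 7.92 ± 0.17 in controls (SD, n = 4 each). None of these steps in its order passed the test.

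Of the retinoic acid receptors, Rara had values of 8.76, 8.47, 8.94 and 8.87 with low protein plus taurine, 9.09, 8.85, 9.03 and 8.89 with low protein, and 8.69, 8.71, 8.67 and 8.54 in controls. The low protein arrays lay above all controls, and the taurine arrays reached into the range of low protein and below that of the controls. Low protein exceeded control by 0.32 (SE 0.09, adjusted p = 0.0235), a 1.25-fold difference. The call was lost after quantile normalization (0.20, adjusted p = 0.151), median centring (0.24, 0.072) and cyclic loess (0.16, 0.231). It was also lost without controls 3 and 4 (0.27, adjusted p = 0.113), without control replicate 4 (0.28, 0.0515), without low protein replicate 1 (0.28, 0.0571) and without low protein replicate 3 (0.30, 0.0616).

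Rarg, the retinoic acid receptor prominent in skin and cartilage, had values of 7.93, 7.80, 8.0 and 7.93 with low protein plus taurine, 7.92, 7.85, 8.06 and 8.0 with low protein, and 7.85, 7.78, 7.90 and 7.87 in controls. The groups overlapped throughout. Low protein lay 0.11 above control (SE 0.06, adjusted p = 0.176), and cyclic loess turned the sign (-0.02). The mean of 6 of 11 epidermis markers ranged from 6.23 to 8.66 with low protein plus taurine, from 6.12 to 8.95 with low protein and from 6.47 to 7.90 in controls. The mean of 9 of 10 cartilage markers ranged from 6.88 to 7.12 with low protein plus taurine, from 6.88 to 7.58 with low protein and from 7.10 to 7.35 in controls. Their part in the Rarg values was not tested.

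Rxrg encodes the retinoid X receptor found mainly in skeletal muscle and brain. It had values of 8.56, 8.30, 8.97 and 8.86 with low protein plus taurine, 8.99, 9.09, 8.95 and 8.98 with low protein, and 8.35, 8.49, 8.53 and 8.49 in controls. All low protein arrays lay above all controls, with both groups narrow, and the taurine arrays again fell into a low and a high pair. The means were 8.67 ± 0.30 with low protein plus taurine, 9.0 ± 0.06 with low protein and 8.46 ± 0.08 in controls (SD, n = 4 each). Low protein exceeded control by 0.54 (SE 0.12, adjusted p = 0.00796), a 1.45-fold difference. Rxrg was the one gene of the 7 called in this comparison under all 21 alternatives run, with differences of 0.38 to 0.58 and adjusted p-values of 0.00359 to 0.0415. Without controls 3 and 4 it was 0.58 (adjusted p = 0.0238).

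Rxra, the retinoid X receptor of most tissues, had values of 8.79, 8.77, 8.90 and 8.91 with low protein plus taurine, 9.09, 8.96, 8.93 and 8.92 with low protein, and 8.76, 8.71, 8.83 and 9.21 in controls. Control 4 lay above all other arrays, and the remaining controls lay below all low protein arrays. Control 4 was also the array with the highest hepatocyte mean, and the part of liver RNA in its Rxra value was not tested. The low protein difference was 0.10 with all arrays (adjusted p = 0.411), 0.21 without control replicate 4 (adjusted p = 0.0276) and 0.24 without controls 3 and 4 (0.0377). After quantile normalization it was -0.02, and after cyclic loess -0.06.

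**Figure D2:**
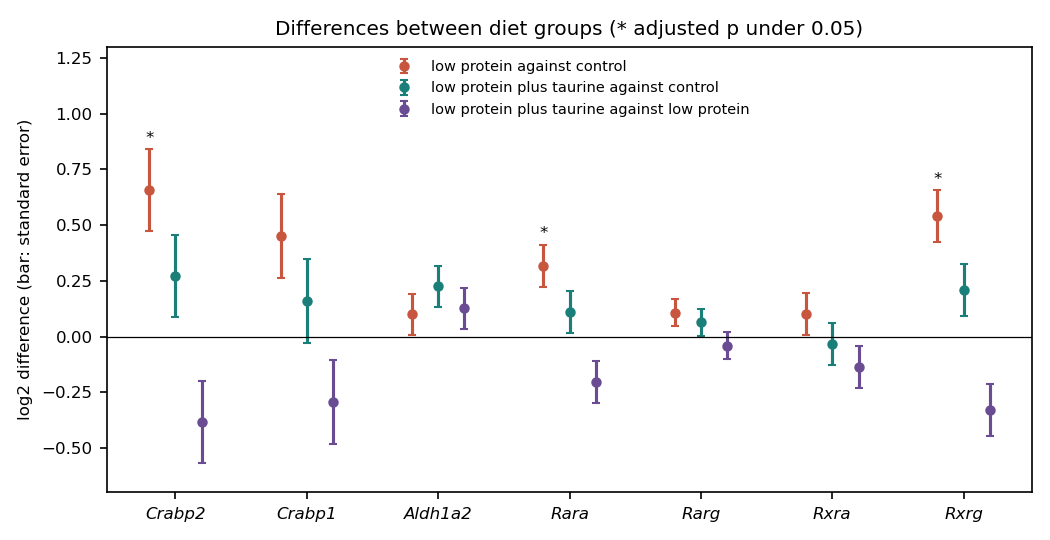
Log2 differences of the 7 retinoid genes in the 3 comparisons, with bars for the standard error and a star for a limma adjusted p under 0.05. Stars stand over Crabp2, Rara and Rxrg for low protein against control (0.66, 0.32 and 0.54), and none stands over the comparisons with taurine.

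Low protein plus taurine against control asked what the low protein diet changed when taurine was added, and used the same controls. None of the 7 genes passed (limma, 1 at an unadjusted p under 0.05, Aldh1a2, and 0 by the methods' t-test after Benjamini-Hochberg), while 13.8% of all probe sets did, 10.2% as higher and 3.6% as lower (35.3% at an unadjusted p under 0.05). No gene of the 7 had all taurine arrays above or below all controls, which 14.2% of all probe sets had as higher and 6.01% as lower. Crabp2 lay 0.27 above control (SE 0.18, adjusted p = 0.300), Rxrg 0.21 (0.211), Crabp1 0.16 (0.563) and Rara 0.11 (0.402). Rarg was at 0.06 and Rxra at -0.03. The signs for Rara and Rarg turned after cyclic loess, and that for Rxra without controls 3 and 4. The median was 0.16, against 0.06 for all probe sets, 0.09 for those with 1 symbol and 0.12 for those above the median level.

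Low protein plus taurine against low protein asked what taurine changed within the low protein diet. No probe set at all passed with limma (0 of 18957, that is 0%, with 2047 at an unadjusted p under 0.05, or 10.8%, and 0 by the methods' t-test after Benjamini-Hochberg). Of the 7 genes, 2 had an unadjusted p under 0.05 (Rxrg and Rara), and Rxra had all taurine arrays below all low protein arrays, as did 3.51% of all probe sets (3.35% lay above). The difference was -0.38 for Crabp2 (SE 0.18, adjusted p = 0.477), -0.33 for Rxrg (0.401), -0.29 for Crabp1 (0.572) and -0.21 for Rara (0.459). Rxra was at -0.14 (adjusted p = 0.598) and Rarg at -0.04. The median was -0.21, against 0.004 for all probe sets.

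The taurine arrays differed among themselves. In Crabp2, Crabp1, Rara and Rxrg, taurine replicates 1 and 2 lay nearer the control mean and replicates 3 and 4 nearer the low protein mean. Relative to the control mean, Crabp2 with taurine stood at 0.04, -0.28, 0.67 and 0.67, against a low protein mean of 0.66. Of the 4208 probe sets with all low protein arrays above all controls, 16.3% showed this split, 30.2% had all taurine arrays nearer low protein and 2.33% had all nearer control. Aldh1a2 had all taurine arrays nearer low protein, Rarg had 3 of 4 so placed, and Rxra had all nearer control.

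With single taurine arrays left out, the difference of low protein plus taurine from control ranged from 0.14 (without replicate 4, adjusted p = 0.615) to 0.46 (without replicate 2, 0.0613) for Crabp2. For Rxrg it ranged from 0.11 (without replicate 3, adjusted p = 0.492) to 0.33 (without replicate 2, 0.0345). Other measures set these arrays apart too. The mean of 12 immediate early genes, a list written after the values were seen, was 8.34, 8.79, 7.99 and 7.95 in taurine replicates 1 to 4, 7.53 to 7.74 with low protein and 7.45 to 8.09 in controls. The myofibre mean was 12.56, 12.53, 12.30 and 12.23 in the same taurine arrays. The labels name no batch, and the part of either measure in the split was not tested.

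**Figure D3:**
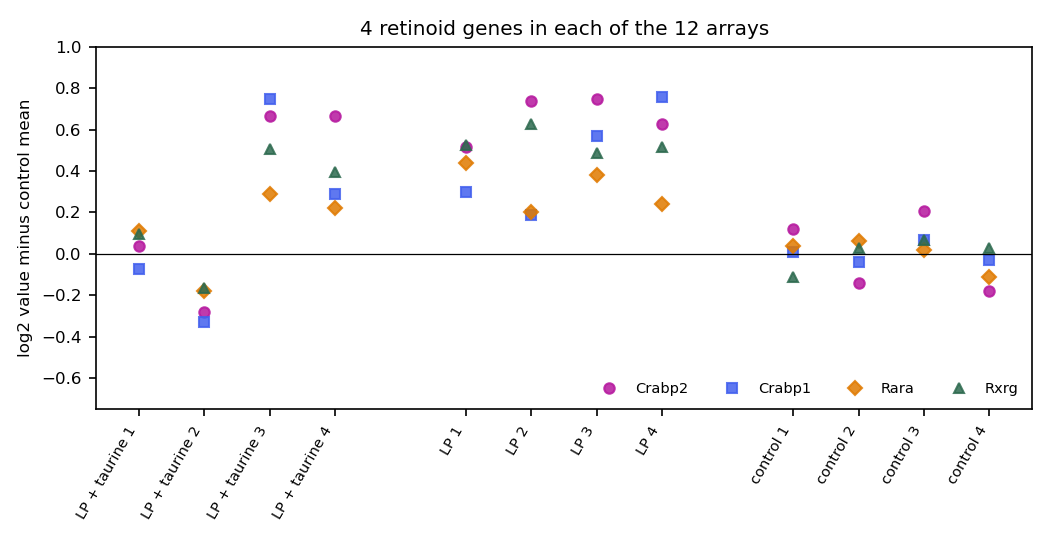
Log2 values of Crabp2, Crabp1, Rara and Rxrg in each array, minus the gene's control mean, with low protein plus taurine (LP + taurine) at the left, low protein (LP) in the middle and control at the right. Taurine arrays 1 and 2 lie between -0.33 and 0.11 and arrays 3 and 4 between 0.22 and 0.75, while the low protein arrays lie between 0.19 and 0.76.

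Other genes of the pathway were counted by role. Of 13 genes for retinol carriage and uptake, 7 had a probe set. In low protein against control 1 rose and 1 fell (median -0.20), against 21.8% of all probe sets as higher and 11.9% as lower. None of the 7 passed with limma without controls 3 and 4, against 19.5% of all probe sets. Rbp7, a cellular retinol binding protein of adipocytes and capillary endothelium, had values of 6.50, 6.57, 7.48 and 7.19 with low protein plus taurine, 9.16, 7.64, 8.21 and 8.49 with low protein, and 7.60, 7.0, 7.23 and 7.02 in controls. It rose by 1.16 (SE 0.29, adjusted p = 0.0129) with low protein, and without controls 3 and 4 it was at 1.08 (adjusted p = 0.0622). Its difference between low protein plus taurine and low protein was -1.44 (SE 0.29, adjusted p = 0.347), with all taurine arrays below all low protein arrays.

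The mean of 8 of 12 adipocyte markers was 7.80, 7.97, 7.60 and 7.15 with low protein plus taurine, 9.32, 7.78, 8.07 and 8.47 with low protein, and 8.39, 7.99, 7.77 and 7.94 in controls. It was highest in low protein 1, as was Rbp7. The mean of 11 of 12 endothelial markers was 8.65 to 8.79 with low protein plus taurine, 8.76 to 8.80 with low protein and 8.49 to 8.68 in controls. The part of either cell type in the Rbp7 difference was not tested. Lrat, which esterifies retinol for storage, fell by 0.34 (SE 0.11, adjusted p = 0.0371) in low protein muscle. The mean of Lrat over 12 arrays was 6.18, below the array medians. Its control values were 6.14, 6.18, 6.51 and 6.66, with the highest in the arrays rich in liver genes, and without controls 3 and 4 the difference was -0.13 (adjusted p = 0.339).

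The plasma carriers made by liver followed controls 3 and 4. Rbp4, the retinol carrier of blood, had values of 7.09 to 7.77 with low protein plus taurine, 7.79 to 8.85 with low protein, and 7.97, 7.62, 10.90 and 11.56 in controls. Its difference was -1.26 between low protein and control (adjusted p = 0.176) and 0.45 without controls 3 and 4 (0.196), so the sign turned. Ttr, which carries Rbp4 in plasma, gave -2.49 (adjusted p = 0.137) and 0.54 (0.429) in the same settings. Stra6, the membrane receptor for Rbp4, was at -0.20 (adjusted p = 0.0899), and Fabp5, a carrier of fatty acids and retinoic acid, was at -0.09 (0.586).

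**Figure D4:**
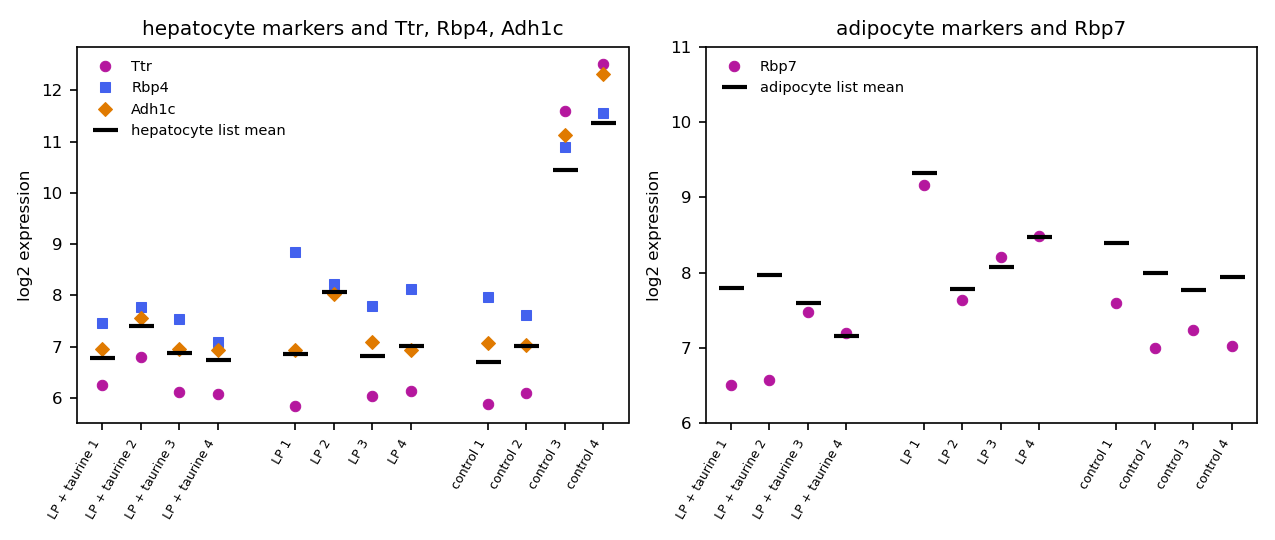
Log2 expression by array, with low protein plus taurine at the left, low protein in the middle and control at the right. The left panel shows Ttr, Rbp4 and the retinol-oxidising enzyme gene Adh1c with the mean of 12 hepatocyte markers, and these are high in controls 3 and 4 (hepatocyte means of 10.45 and 11.37). The right panel shows Rbp7 with the mean of 8 adipocyte markers, both highest in low protein 1 (9.16 and 9.32).

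Of 19 enzymes acting on retinol, retinal or carotene, 12 had a probe set. In low protein against control 0 rose and 2 fell (median 0.04), against 21.8% of all probe sets as higher and 11.9% as lower. Without controls 3 and 4, 1 fell (Rdh12), against 19.5% of all probe sets passing in either direction. After cyclic loess none passed, against 13.5%. Rdh12, a retinal reductase, fell by 0.34 (SE 0.08, adjusted p = 0.0103), with -0.20 after cyclic loess (adjusted p = 0.1). Bco1, which splits carotene into retinal, fell by 0.38 (SE 0.13, adjusted p = 0.0343), with -0.18 without controls 3 and 4 (0.265). Both genes were low, with means over 12 arrays of 6.09 for Rdh12 and 6.74 for Bco1, against array medians of 7.66 to 7.75. Rdh10, which makes retinal for retinoic acid synthesis, was at 0.17 (adjusted p = 0.18), and Dhrs3, which reduces retinal back to retinol, was at 0.02 (0.925). The sign for Dhrs3 turned after quantile normalization, median centring and cyclic loess.

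Of 8 genes for retinal oxidation and clearance of retinoic acid, 5 had a probe set. In low protein against control 0 rose and 1 fell (median -0.02), against 21.8% of all probe sets as higher and 11.9% as lower. Cyp26a1, which degrades retinoic acid and is induced by it, had values of 6.58, 6.68, 6.66 and 6.64 with low protein plus taurine, 6.64, 6.54, 6.50 and 6.61 with low protein, and 6.88, 6.90, 6.73 and 6.66 in controls. All low protein arrays lay below all controls, and the difference was -0.22 (SE 0.06, adjusted p = 0.0204). It was -0.16 after cyclic loess (adjusted p = 0.0744) and -0.32 without controls 3 and 4 (0.0108). Quantile normalization gave -0.14 (adjusted p = 0.123), and the methods' t-test gave an adjusted p of 0.0628. The call held under 14 of 20 alternatives, and all Cyp26a1 values lay below the array medians of 7.66 to 7.75. Cyp26b1, a relative of Cyp26a1 active in the limb, was at 0.00 (adjusted p = 0.982), and its sign turned after median centring and without controls 3 and 4. Aldh1a3, a further retinaldehyde dehydrogenase, was at 0.14 (adjusted p = 0.187).

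Of 22 receptor partners and coregulators, 20 had a probe set, and 8 rose and 0 fell with low protein, against 21.8% of all probe sets and 35.2% of those above the median level as higher. Without controls 3 and 4, 3 rose (Ncoa3, Thra and Hdac3), against 10.8% of all probe sets, and after cyclic loess 2 rose (Ncoa3 and Thra), against 4.99%. The 4 with the smallest p were Ncoa3, a coactivator of nuclear receptors (0.27, adjusted p = 0.00474), Thra, the thyroid hormone receptor alpha (0.31, 0.00492), Hdac3, the deacetylase of the receptor corepressor complex (0.22, 0.0105), and Tbl1xr1, a subunit of that complex (0.24, 0.0155). After cyclic loess Hdac3 was at 0.08 (adjusted p = 0.289) and Tbl1xr1 at 0.08 (0.341). Without controls 3 and 4 Tbl1xr1 was at 0.21 (adjusted p = 0.0884). Rxrb, the third retinoid X receptor, was at 0.02 (adjusted p = 0.776), and its sign turned under quantile normalization, median centring, cyclic loess and without controls 3 and 4. The list's median was 0.13, against 0.07 for all probe sets and 0.13 for those above the median level.

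Of 27 genes known to respond to retinoic acid, 19 had a probe set, and 5 rose and 1 fell with low protein, with a median of 0.02. Of all probe sets 33.7% passed, 21.8% as higher and 11.9% as lower, so the list's share was near that of all probe sets. When controls 3 and 4 were left out, 2 rose (Hoxa5 and Hoxa2) and 1 fell (Cyp26a1). In that setting 19.5% of all probe sets passed, 10.8% as higher. After cyclic loess 3 rose and 0 fell, against 4.99% of all probe sets as higher. The 5 risers in the main fit were Crabp2, the homeobox genes Hoxa5, Hoxa2 and Meis2, and Rai14, named for its induction by retinoic acid. Hoxa5 had values of 8.44, 8.24, 8.21 and 8.31 with low protein plus taurine, 8.62, 8.38, 8.39 and 8.39 with low protein, and 8.04, 8.17, 7.95 and 7.86 in controls. All arrays of both low protein groups lay above all controls. The difference was 0.44 (SE 0.08, adjusted p = 0.00527) with low protein and 0.30 (SE 0.08, adjusted p = 0.034) with low protein plus taurine, and the low protein difference was 0.29 after cyclic loess (adjusted p = 0.0256). The taurine difference of Hoxa5 was 0.17 after cyclic loess (adjusted p = 0.189) and 0.19 without controls 3 and 4 (0.206), and it was called under 9 of 21 alternatives. The gene that fell was Cyp26a1, the feedback enzyme described above. Meis2 was at 0.28 (adjusted p = 0.0343), with 0.12 without controls 3 and 4 (0.317). Hoxa2 was at 0.31 (0.0191), with 0.23 after median centring (0.0577) and 0.26 without control replicate 1 (0.0503). The call of Hoxa2 held under 18 of 20 alternatives, and its mean over 12 arrays was 6.42, below the array medians. Rai14 was at 0.26 (0.0195), with 0.11 after cyclic loess (0.318) and 0.26 without controls 3 and 4 (0.0718).

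**Figure D5:**
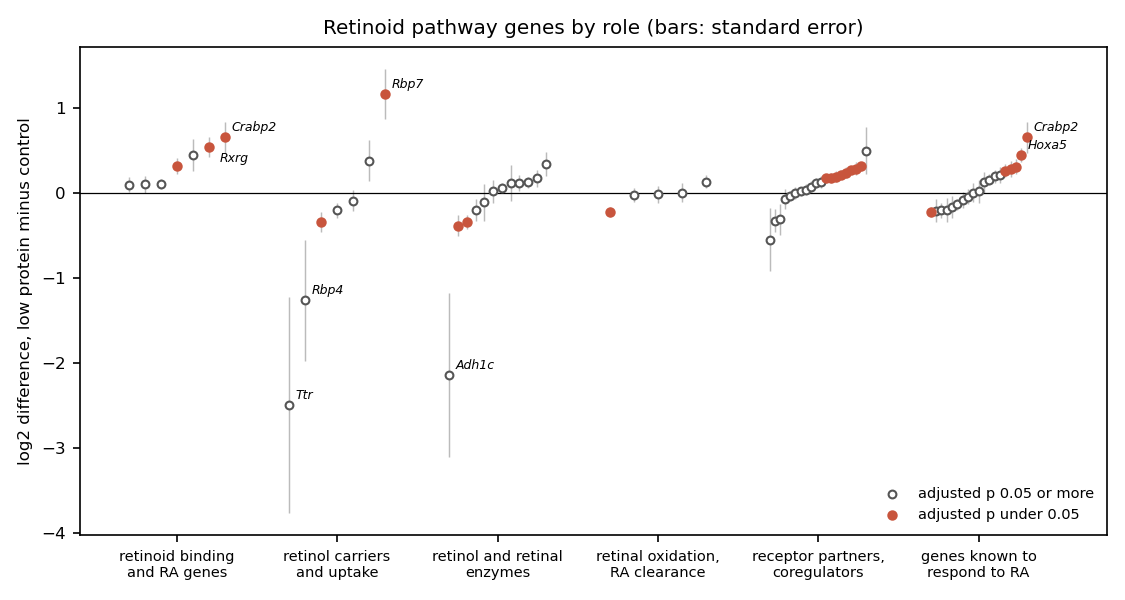
Log2 difference of low protein minus control for each retinoid gene and each further pathway gene with a probe set, grouped by role (RA, retinoic acid). Bars are standard errors, filled points passed the limma adjusted p of 0.05, and open points did not. Rbp7 (1.16) is the highest point, and the liver-made Ttr (-2.49), Adh1c (-2.14) and Rbp4 (-1.26) are the lowest.

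In low protein plus taurine against control, no gene of the first 3 lists passed (limma, with 3 of 7, 2 of 12 and 1 of 5 at an unadjusted p under 0.05, and 0 in each by the methods' t-test after Benjamini-Hochberg). Over all probe sets 10.2% rose and 3.6% fell, and 22.6% of those above the median level rose. Among receptor partners 5 of 20 rose, led by Ncoa3 (0.21, adjusted p = 0.0174), Thra (0.20, 0.0315), Tbl1xr1 (0.23, 0.0329) and Hdac3 (0.17, 0.0446). Among genes known to respond to retinoic acid 4 of 19 rose: Rai14 (0.36, adjusted p = 0.0162), Hoxa5 (0.30, 0.034), Bhlhe40, a basic helix-loop-helix repressor (0.42, 0.0437), and Meis2 (0.30, 0.0467). No gene of these 2 lists passed after cyclic loess, and none rose without controls 3 and 4. In that setting, where 4.78% of all probe sets passed, Cyp26a1 fell. Rdh16, a retinol dehydrogenase, rose there (0.53, limma adjusted p = 0.0389, against 0.05 with all controls). That rise rests on controls 1 and 2, at 6.04 and 5.59. The taurine values of Rdh16 were 6.39, 6.33, 6.28 and 6.40, and all of these lay below the array medians. The taurine difference without these 2 controls was 0.20 for Ncoa3 (adjusted p = 0.0782), 0.13 for Thra (0.172), 0.20 for Tbl1xr1 (0.155) and 0.17 for Hdac3 (0.142). It was 0.36 for Rai14 (adjusted p = 0.0563), 0.50 for Bhlhe40 (0.0794) and 0.14 for Meis2 (0.315). After cyclic loess Ncoa3 was at 0.15 (adjusted p = 0.073), Thra at 0.08 (0.281), Tbl1xr1 at 0.10 (0.317), Hdac3 at 0.05 (0.599), Rai14 at 0.23 (0.0737), Bhlhe40 at 0.30 (0.201) and Meis2 at 0.30 (0.07). In low protein plus taurine against low protein, no gene of the 5 lists passed with limma, and 1 to 2 genes in each had an unadjusted p under 0.05.

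Genes with the most similar array-to-array pattern were found by Pearson's r of deviations from the group means over 12 arrays, as a description. Genes compared in this way share each array's pool and normalization, so these values also carry what sets whole arrays apart. For Crabp2 the nearest were Tia1 (r = 0.973), Nasp (0.963), Fam3c (0.963), Cbx3 (0.96) and Mmp15 (0.956). Tia1, for example, had values of 9.12, 8.86, 9.42 and 9.46 with low protein plus taurine, 9.37, 9.46, 9.42 and 9.36 with low protein, and 9.16, 8.98, 9.18 and 9.05 in controls. For Crabp1 the nearest were Pinx1 (0.956), Rad54l (0.938), Asf1b (0.931), Wrap73 (0.919) and Gemin4 (0.915). For Aldh1a2 they were Ift56 (0.929), Txlnb (0.928), Perm1 (0.908), Pkd1 (0.908) and Igdcc4 (0.907). Among the retinoid genes themselves, Crabp2 had r = 0.846 with Rxrg, 0.756 with Crabp1 and 0.715 with Rara, against 0.551 with Rarg, 0.06 with Aldh1a2 and 0.051 with Rxra.

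In the authors' deposited table of 895 probe sets, Crabp2 and Rxrg were the 2 of these genes listed. Its ratio of low protein to control was 1.58 for Crabp2 and 1.45 for Rxrg, and that table gives a ratio of low protein plus taurine to control of 1.21 for Crabp2 and 1.16 for Rxrg. Both were marked there as fully rescued by taurine, as were 88 probe sets in all, with 195 marked as partly rescued. Beside that mark, Crabp2 stood at 6.77, 6.45, 7.40 and 7.40 in taurine replicates 1 to 4. Its range was 7.25 to 7.48 with low protein and 6.55 to 6.94 in controls. Rxrg stood at 8.56, 8.30, 8.97 and 8.86 in the same taurine arrays. Its range was 8.95 to 9.09 with low protein and 8.35 to 8.53 in controls.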

How the data were processed

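The authors processed the arrays with RMA in R 3.2.2, per the submitters' processing notes, and deposited log2 expression values per probe set. Their table of 18957 detected probe sets (of 29214) was used without further transformation. Their comparison table adds p-values, linear intensity means of each group and their ratio, which the authors computed, per the file headers. The number of arrays limits the precision. Names are those of the platform annotation, which gives 1 symbol for 11721 probe sets, several for 141 and none for 7095.

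A limma 3.58.1 model (R 4.3.3) was fitted to the 12 arrays with a mean for each of 3 groups and eBayes, and two-sided p-values were adjusted by Benjamini-Hochberg over 18957 probe sets at 0.05. The test was checked on simulated data. Groups came from the labels. Same-numbered arrays deviated together (correlation above 0.1) in 3 of 12 pairs, and the correlations of all 12 ran from -0.21 to 0.20. The main fit did not pair arrays by number. Whether same-numbered arrays shared a batch was not tested.

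The genes, pathway lists and tests were chosen with earlier results of these data known. Named pathway genes were a fixed set (Rbp4, Rbp7, Ttr, Stra6, Fabp5, Rdh10, Dhrs3, Aldh1a3, Cyp26a1, Cyp26b1, Rxrb, and a further gene that is not reported here) and up to 4 per list and comparison with adjusted p under 0.05, smallest first. Adh1c, Rdh16, Meis2 in low protein and Tia1's values were named after their values were seen. Alternatives were other normalizations, filters, fits and arrays left out, and the methods' t-test (equal variance).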

Additional observations from a re-analysis of the deposited data

Results flagged for a closer look

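Among 30 named genes in 3 groups of 4 arrays, 10 of 90 groups held an array whose gap to the nearest other exceeded Dixon's critical value, and chance flags about 1 in 20 groups. Among the retinoid genes this was Aldh1a2 in low protein plus taurine 3, at 8.05, below the 8.18 to 8.19 of the other taurine arrays. Hoxa5 stood at 8.62 in low protein 1, above 8.38 to 8.39 in the rest of its group. Hoxa2 stood low at 6.19 in low protein plus taurine 2 (others 6.53 to 6.57) and at 6.10 in control 1 (others 6.27 to 6.30). Thra stood high at 9.85 in low protein plus taurine 3 (others 9.78 to 9.79) and at 9.92 in low protein 3 (others 9.90). Ncoa3 was at 7.63 in low protein plus taurine 4 (others 7.57), and Stra6 at 6.43 in low protein plus taurine 2 (others 6.28 to 6.30). Cyp26b1 was at 6.16 in low protein 2 (others 6.50 to 6.57). Ttr reached 8.07 in low protein 2 (others 5.85 to 6.14), the array with the highest hepatocyte mean of its group, also at 8.07.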

How the results depend on the processing

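The number of the 7 retinoid genes called was 3 for low protein against control, and 1 to 3 when single arrays were left out. It was 1 without low protein replicate 3, where 20.7% of all probe sets passed. It was 2 after quantile normalization, median centring or cyclic loess, with only probe sets above the median level, and without controls 3 and 4. In these settings 13.5% to 40.8% of the probe sets tested passed. It was 4 with the replicate block, array weights, the fit of only the 2 groups, and without taurine replicates 1 and 2. There 28.8% to 42.0% passed. For low protein plus taurine against control the number was 0, and 0 to 1 when single arrays were left out. It was 1 without taurine replicate 2, against 14.2% of all probe sets. It was 2 without taurine replicates 1 and 2, against 5.34% of all probe sets. Those 2 arrays had the lowest taurine values of Crabp2, Crabp1, Rara and Rxrg, so that this count follows from which arrays were left out. For low protein plus taurine against low protein it was 0 under every alternative run. The replicate block changed 1 call of these genes, Crabp1, to adjusted p = 0.039. The filter on the level removed Crabp2.

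Over all probe sets, low protein against control had 6390 calls, 64.6% of them higher. This was 2982 calls and 51.1% after quantile normalization, 5122 and 29.4% after median centring, 2564 and 36.9% after cyclic loess, and 3705 and 55.1% without controls 3 and 4. Low protein plus taurine against control had 2616 calls, 73.9% higher, against 1201 and 46.1%, 1822 and 32.9%, 1137 and 29.3%, and 907 and 43.3% in the same settings. With single arrays left out the calls ranged from 3929 to 5831 and from 620 to 2742 in these comparisons. With array weights the second had 4276 calls, with only its own groups 1353, and without taurine replicates 1 and 2 1013. The methods' t-test with Benjamini-Hochberg gave 4079 and 491. With only probe sets of 1 symbol, 80.8% and 92.0% of calls in these comparisons were higher, and 86.3% and 86.9% with only probe sets above the median level. In the table of all probe sets the shares were 54.8% and 55.5%.

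Signs that turned among the genes examined belonged to differences that were not called in the main fit. Some of these low protein differences were called with control arrays left out (limma). Rxra was called without control replicate 4 and without controls 3 and 4, as given above. Rbp4 was called without control replicate 2 (-1.89, adjusted p = 0.0429). Ttr was called without control replicate 1 (-3.54, adjusted p = 0.0448) and without control replicate 2 (-3.47, 0.0484). After cyclic loess, low protein minus control was -0.040 for Aldh1a2, -0.022 for Rarg, -0.055 for Rxra, -0.13 for Dhrs3 and -0.11 for Rxrb, and low protein plus taurine minus control was -0.024 for Rara and -0.037 for Rarg. After quantile normalization the low protein difference was -0.021 for Rxra, -0.084 for Dhrs3 and -0.076 for Rxrb, and the taurine difference from control -0.0087 for Rarg. After median centring, low protein minus control was -0.063 for Dhrs3, -0.078 for Cyp26b1 and -0.061 for Rxrb. Without controls 3 and 4 it was -0.000378 for Aldh1a2, 0.45 for Rbp4, 0.54 for Ttr, 0.034 for Fabp5, -0.15 for Cyp26b1 and -0.031 for Rxrb, and Rxra with taurine was 0.11 above control. Without taurine replicates 1 and 2, the taurine minus low protein difference was 0.010 for Crabp2, 0.066 for Crabp1 and 0.0050 for Rarg, and Rxra with taurine was 0.028 above control, and 0.031 with array weights. With single arrays left out, low protein minus control ran from -0.050 to 0.14 for Dhrs3, from -0.085 to 0.10 for Cyp26b1 and from -0.022 to 0.045 for Rxrb, and low protein plus taurine minus control from -0.037 to 0.32 for Crabp1 and from -0.089 to 0.076 for Rxra. The causes of these shifts were not tested, beyond fewer arrays or probe sets where these were left out.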

Other observations

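The p-values in the authors' deposited table equalled those of an equal-variance statistic read against a normal distribution, with a largest difference of 5.8e-14 over 895 probe sets in any comparison. The same statistic read against a t distribution with 6 degrees of freedom gives larger values. For Rxrg in low protein plus taurine against low protein, the authors' deposited table gives p = 0.0319, and the t distribution with 6 degrees of freedom gives 0.0755 for the same statistic. For Crabp2 in low protein against control, the authors' deposited table gives 2.33e-09, and the t distribution gives 0.000988.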
